A study of Mus musculus with 38 samples.

Results

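The Notch pathway was followed through 10 genes in epidermal stem cells (EpdSCs) of mouse skin, the basal keratinocytes that renew the epidermis, before and after the transcription factor SOX9 was switched on in them. The genes were the receptors *Notch1*, *Notch2* and *Notch3*, the ligands *Jag1*, *Jag2* and *Dll1*, the target genes *Hes1* and *Hey1*, and the nuclear effectors *Rbpj* and *Maml2*, 10 of the 21938 protein-coding genes of GENCODE M21 on 21 chromosomes. Each was taken as its gene body with 50 kb on either side in mm10, and every interval that overlapped this window by at least 1 bp was counted in 14 lists. The lists were 5 of H3K4me1 domains and 5 of H3K27ac peaks in skin, and 4 of H3K4me1 domains in culture.

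Skin EpdSCs came from male animals of the genotype *K14rtTA; TRE-myc-Sox9*, also before induction. In these animals the *Krt14* promoter drives rtTA, and rtTA with doxycycline (DOX) induces MYC-tagged SOX9. The time points were no DOX (D0) and 1, 2, 6 and 12 weeks of DOX (W1, W2, W6 and W12), with DOX begun at postnatal day 21 for W1, W2 and W6. As the study's methods describe it, W12 skin was a patch of newborn transgenic skin grafted onto an immunocompromised host, so that time and grafting cannot be told apart there. The titles of the W12 libraries also name replicate 1 of W2. EpdSCs were sorted as CD49f-high, CD34-negative and Ly6A-high after cells with CD31, CD45, CD117 or CD140a were removed. The culture cells were EpdSC lines with *K14rtTA* and a lentiviral SOX9 transgene. It was either wild-type (WT), without the HMG domain that binds DNA (ΔHMG), or without the transactivation domain (ΔTA). Their reference was WT without DOX.

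Both marks were mapped by MINT-ChIP, in which nuclease-cut chromatin is barcoded, pooled and immunoprecipitated. H3K4me1 lies over enhancers, whether or not they are in use, and H3K27ac over enhancers and promoters in use. The labels name a high or a low MNase digest for each library, and the lists are not split by digest. Since each list is a pool of replicates, no replicate error can be given and no difference was tested. The confidence intervals cover counting error only. The H3K27ac lists held between 29081 (W2) and 33985 (W12) peaks. Their depth, read from the background pileup behind the fold enrichments, was lowest at W1 (0.299) and highest at W6 (0.677), and a weak peak can be missed in a shallow list. The depth of the H3K4me1 lists is unknown. Of 8 basal keratinocyte genes, 8 had an H3K27ac peak within 1000 bp of a start site at D0, W1, W2 and W6 and 7 at W12, where *Krt15* had none. Of the 4 genes of the removed cell types, none had one at D0, W1 or W2, and *Pecam1* had one at W6 and W12. Of 8 genes of other skin cells, 1 or 2 had one in each list, *Acta2* in every list and *Dct* at W1. Of 4 genes of suprabasal keratinocytes, *Krt10* had one in every list, *Ivl* at W2, and *Krt1* and *Lor* in none. The part of other cells in the values below was not tested.

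In Notch signalling, a Jagged or Delta ligand on one cell binds a Notch receptor on its neighbour. The receptor is then cut and its intracellular domain enters the nucleus, where it joins the DNA-binding protein RBPJ and a Mastermind coactivator such as MAML2 and switches on target genes of the Hes and Hey families. In the epidermis the pathway is known for its part in the commitment of basal cells to differentiation.

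The members lay on 7 chromosomes and ranged from 3.4 kb (*Hes1*) to 411.4 kb (*Maml2*), so that windows ran from 103.4 kb to 511.4 kb. Levels are therefore given as the percentage of the window that intervals covered. *Jag1*, *Hes1* and *Hey1* had no other protein-coding gene with a start site in the window. The others shared theirs with *Inpp5e* and *Sec16a* (*Notch1*), *Adam30* (*Notch2*), *Ephx3* (*Notch3*), *Btbd6*, *Gpr132* and *Nudt14* (*Jag2*), *Fam120b* (*Dll1*), *Cckar* (*Rbpj*), and *Gm17571* and *Mtmr2* (*Maml2*). An interval in a shared window need not belong to the member.

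Sequences under H3K27ac peaks that were gained or lost are shown first, because the changes in these windows lay mostly away from start sites. Shown are 200 bp on the summits of 3 of the 5 W2 peaks of highest fold that D0 lacked, and of 2 of the 5 D0 peaks of highest fold that all later lists lacked. They are followed by the 250 bp before the most downstream start site of *Maml2*, which lies in a region that D0 lacked and every later list held. The letters come from the RefSeq tables and genome of GRCm38.p6, the build of mm10, and read along the plus strand. Capitals mark ACAAAG or ACAATG, the core that SOX proteins bind, on either strand. The RBPJ core GTGGGAA was searched on both strands too and was found in none of them.
*Rbpj*, gained, chr5:53470124-53470323: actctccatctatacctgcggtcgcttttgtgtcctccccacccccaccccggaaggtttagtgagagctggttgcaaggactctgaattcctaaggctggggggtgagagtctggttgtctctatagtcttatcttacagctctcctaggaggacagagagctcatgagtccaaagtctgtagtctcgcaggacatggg
*Maml2*, gained, chr9:13663908-13664107: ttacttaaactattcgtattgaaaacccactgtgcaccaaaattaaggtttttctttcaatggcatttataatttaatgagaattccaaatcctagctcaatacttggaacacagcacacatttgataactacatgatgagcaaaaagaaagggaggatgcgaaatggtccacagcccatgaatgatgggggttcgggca
*Notch2*, gained, chr3:98042774-98042973: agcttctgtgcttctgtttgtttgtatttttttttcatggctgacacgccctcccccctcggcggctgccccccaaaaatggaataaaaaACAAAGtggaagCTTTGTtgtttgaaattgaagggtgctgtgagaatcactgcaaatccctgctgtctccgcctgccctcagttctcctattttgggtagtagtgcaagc
*Notch1*, lost, chr2:26549834-26550033: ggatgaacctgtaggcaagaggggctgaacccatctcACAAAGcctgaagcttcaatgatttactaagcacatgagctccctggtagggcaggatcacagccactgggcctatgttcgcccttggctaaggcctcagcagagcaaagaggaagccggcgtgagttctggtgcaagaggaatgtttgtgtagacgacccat
*Dll1*, lost, chr17:15379679-15379878: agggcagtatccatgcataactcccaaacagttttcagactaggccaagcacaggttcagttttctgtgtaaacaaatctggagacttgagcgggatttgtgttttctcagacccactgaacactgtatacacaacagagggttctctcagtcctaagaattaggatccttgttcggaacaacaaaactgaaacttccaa
*Maml2*, before its downstream start site, chr9:13662210-13662459: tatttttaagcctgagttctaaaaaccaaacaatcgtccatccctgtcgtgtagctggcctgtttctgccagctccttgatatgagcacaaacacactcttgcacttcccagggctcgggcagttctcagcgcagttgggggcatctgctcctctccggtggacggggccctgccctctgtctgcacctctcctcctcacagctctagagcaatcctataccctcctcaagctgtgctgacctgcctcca

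Of the 5 gained windows, 1 held a SOX core, that of *Notch2*, with 2 copies on opposite strands. Of the 5 lost windows 1 held it, in the flank of *Notch1*. Over all peaks the share of summit windows with a SOX core was 22.1% at W2 and 20.6% at D0, and with the RBPJ core 5.01% and 5.02%, so that 1 in 5 is near the share of all peaks. The RefSeq table gave promoters, from 250 bp before to 50 bp after a start site, for 8 of the 10 members. *Hes1* and *Hey1* were not in it. Of these 11 promoters 4 held a SOX core and none the RBPJ core, against 28.6% and 6.38% of the 32851 promoters in the table. The cores in promoters were at *Jag1*, upstream of *Dll1* and at 2 start sites of *Maml2*. A match describes the letters only.

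Before induction, 8 of the 10 members stood above the median of all genes for H3K4me1 cover. *Jag2* led, with 70.5% of its window covered at D0, followed by *Notch1* (52.4%), *Dll1* (49.9%), *Hes1* (44.1%), *Jag1* (42.0%), *Notch2* (35.0%), *Maml2* (32.4%) and *Notch3* (28.5%). *Rbpj*, at 15.9%, and *Hey1*, at 5.06%, were below the median of 18.3%. For H3K27ac the order at D0 was *Jag1* (11.6%), *Notch1* and *Hes1* (each 11.2%), *Dll1* (8.24%), *Jag2* (6.32%), *Notch3* (2.33%), *Maml2* (1.81%), *Notch2* (1.24%) and *Rbpj* (1.12%), and the median of all genes was 1.42%. *Hey1* had no H3K27ac peak in its window before W12. *Rbpj* and *Hey1* closed the order in every list of both marks and of culture. With 1 pooled list per condition no spread is known, so neighbours in these orders cannot be said to differ.

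**Figure D1:**
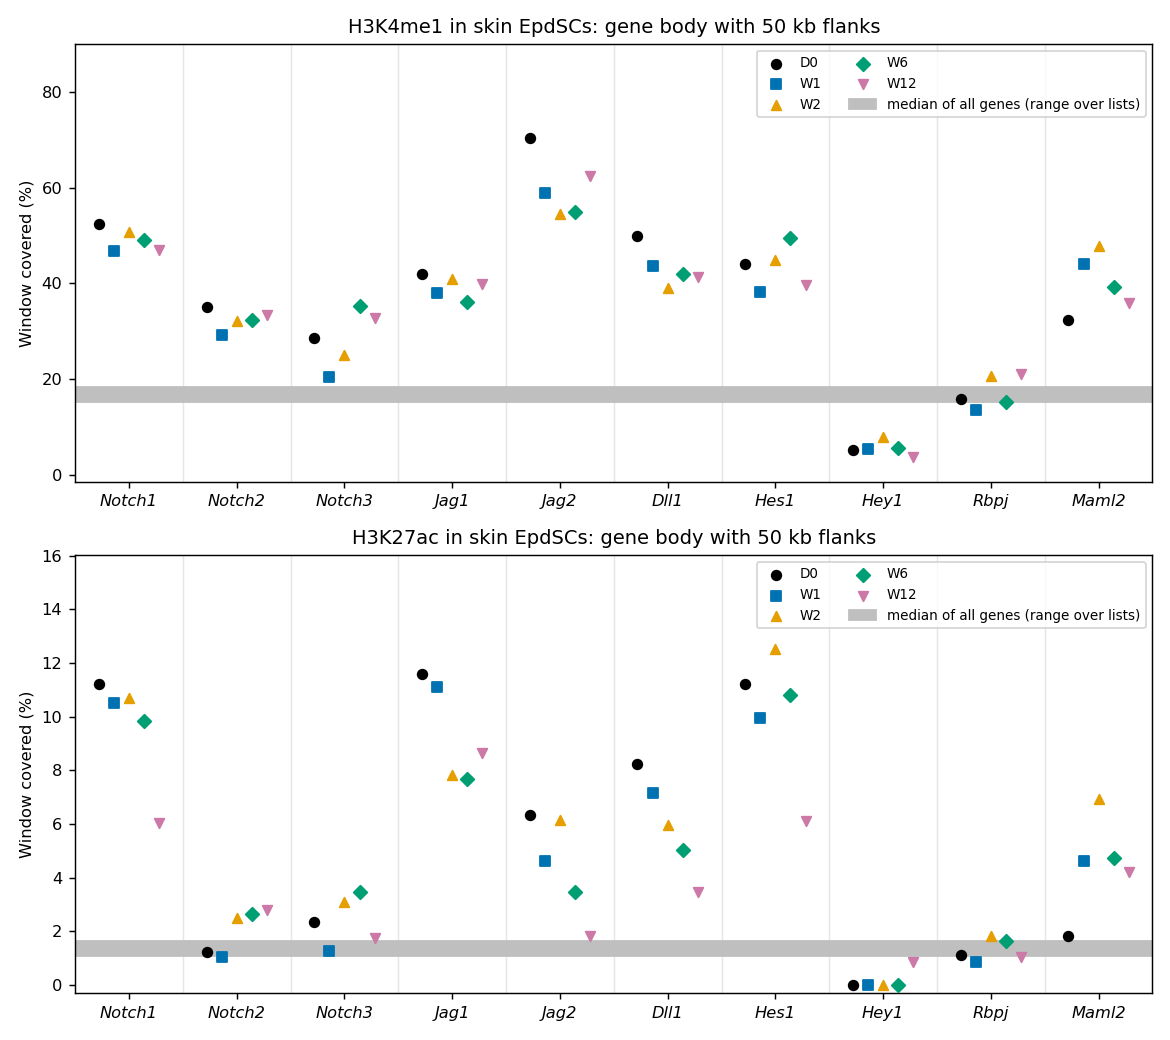
Percentage of each window (gene body with 50 kb flanks) covered by H3K4me1 domains (top) and H3K27ac peaks (bottom) in the 5 pooled skin lists, 1 point per list, with the range of the all-gene median in grey. *Maml2* is lowest at D0 for both marks, while *Notch1*, *Jag1*, *Jag2* and *Dll1* are highest at D0.

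Each later list was then set against D0 to ask which members changed after SOX9 induction. A member was called when its covered bases were at least 50% more or 33% fewer for H3K27ac, or at least 25% more or 20% fewer for H3K4me1, and the same rule applied to all genes gives the background. All 4 comparisons of a mark share the D0 list, so that a property of that list alone appears in each of them. The median log2 ratio of all genes was itself off 0, at -0.24, -0.16, -0.18 and -0.21 for H3K4me1 at W1, W2, W6 and W12, and at -0.02, 0.10, 0.21 and -0.45 for H3K27ac. Calls toward fewer bases are read against these shifts.

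**Figure D2:**
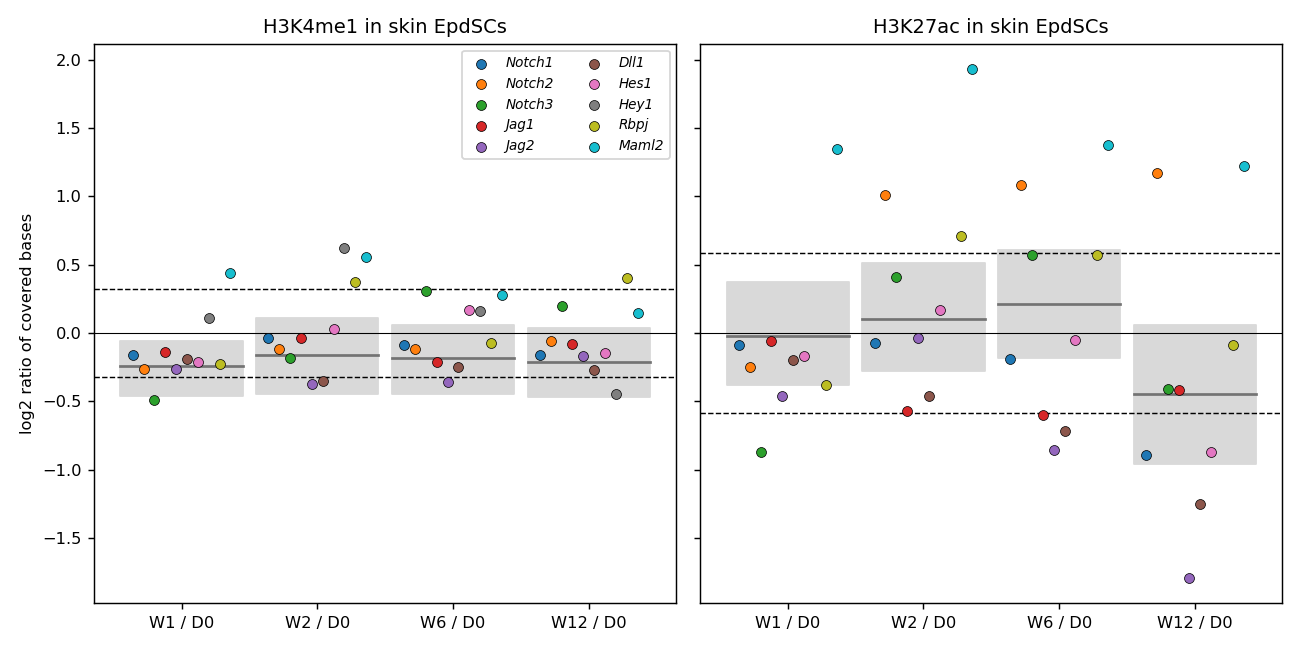
Log2 ratio of covered bases to D0 for each member (coloured points) at W1, W2, W6 and W12, for H3K4me1 (left) and H3K27ac (right); grey boxes span the middle 50% of all genes with their median as a line, and dashed lines mark the fold for a call. *Maml2* is the highest point for H3K27ac in all 4 comparisons, and *Hey1* has no H3K27ac ratio because D0 held none.

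By H3K27ac, 1 member was called as having more covered bases at W1 and 1 as having fewer, with a background of 19.5% and 18.8% of all genes tested. At W2 the counts were 3 and 0 (background 23.9% and 16.7%), at W6 2 and 3 (28.4% and 13.3%), and at W12 3 and 4 (19.9% and 40.5%). By H3K4me1, they were 1 and 1 at W1 (5.21% and 40.9%), 3 and 2 at W2 (15.1% and 35.8%), 0 and 1 at W6 (12.5% and 36.2%), and 1 and 1 at W12 (12.9% and 38.9%). With 9 or 10 members tested, the counts toward more H3K27ac were close to the background. The median log2 ratio of the 9 members with a ratio was -0.20, 0.17, -0.05 and -0.42 for H3K27ac at W1 to W12, beside -0.02, 0.10, 0.21 and -0.45 over all genes. For H3K4me1, over all 10, it was -0.20, -0.04, -0.08 and -0.12, each above the median of all genes.

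Among the nuclear effectors, *Maml2* had the largest H3K27ac ratio to D0 of all members in all 4 comparisons. MAML2 is a Mastermind coactivator of the Notch complex. H3K27ac covered 1.81% of its window at D0 and 4.62%, 6.91%, 4.72% and 4.21% from W1 to W12, in 15, 25, 31, 27 and 34 peaks. The ratios to D0 were 2.55, 3.81, 2.60 and 2.33, at the 96.2, 97.5, 94.1 and 95.8 percentile of all genes. D0 was thus below every later list, and the ratio was past the fold in all 4 comparisons under each alternative tried, the stricter fold of 2 included. H3K4me1 covered 32.4%, 44.0%, 47.8%, 39.3% and 35.9% of the window in the same order, past the fold at W1 (1.36) and W2 (1.48) and not at W6 (1.21) or W12 (1.11). With domains above the median score the W1 call was lost (log2 ratio 0.30). Its widest domain was 15000 bp at D0 and 33600 bp at W2, and 42 domains were listed at D0 against 32 at W2, so that the larger cover at W2 lay in fewer and wider domains.

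The H3K27ac gain of *Maml2* was spread along the gene. At W2, 20 of its 31 peaks had no counterpart at D0 (40.1% of the whole W2 list), and 3 of 15 D0 peaks were lost (38.6% of the whole D0 list). The highest was at its downstream start site, 364.5 kb into the gene. The region there, chr9:13660661-13665943, was absent from the D0 list and had folds of 7.70, 13.3, 18.5 and 15.6 from W1 to W12. H3K4me1 was called over this region in all 5 lists, D0 included, and in all 4 culture lists. The part of it before the start site, a W2 peak at chr9:13660838-13661869 with a fold of 10.5, was in an H3K4me1 domain of culture cells with WT SOX9 and of none of the other 3 culture lists. A second region, in an intron 25 kb into the gene (chr9:13321996-13324011), was likewise missing at D0 and had folds of 4.62, 8.42, 4.77 and 9.21. The first start site itself was marked throughout, with folds of 6.66, 9.24, 10.5, 11.3 and 11.3 from D0 to W12. Where *Maml2* shares its window, the start site of *Mtmr2* was marked in every list (12.7, 6.93, 7.72, 11.3 and 6.38).

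**Figure D3:**
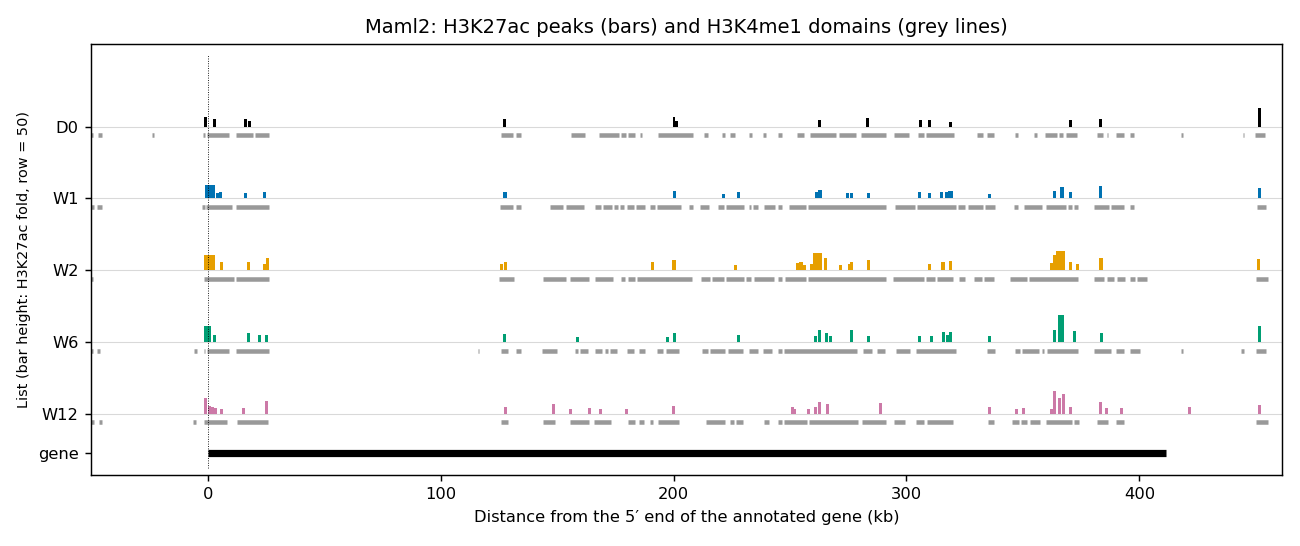
H3K27ac peaks (bars, height is fold enrichment, 1 row spacing is a fold of 50) and H3K4me1 domains (grey lines) over *Maml2* in the 5 skin lists, by distance from the 5′ end of the annotated gene in kb. The bars near 365.3 kb are in the rows W1, W2, W6 and W12 and not in D0.

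*Rbpj*, which encodes the DNA-binding partner of the Notch intracellular domain, had few peaks. Its H3K27ac cover was 1.12% at D0 and 0.858%, 1.83%, 1.65% and 1.05% later. Only W2 passed the fold (1.64), and it did not with a flank of 10 kb (log2 ratio 0.57) or with peaks above the median score (0.45). H3K4me1 covered 15.9%, 13.6%, 20.6%, 15.2% and 21.1%, past the fold at W2 (1.29) and W12 (1.32). The W2 call was lost when only domains nearest the *Rbpj* start sites were kept (log2 ratio 0.27). The group of start sites 124.1 to 124.8 kb into the gene carried a peak in every list, of fold 30 at D0 and 11.5, 16.8, 16.7 and 10.6 later. Folds of separate lists depend on their depth. Among the peaks of its own list it stood at the 97.3, 93.1, 95.4, 91.4 and 92.5 percentile from D0 to W12. An intronic region 4.0 kb from the 5′ end of the gene (chr5:53469244-53471051) had no peak at D0 and folds of 8.47, 14.7, 10.7 and 7.08 from W1 to W12. It was the W2 peak of highest fold that D0 lacked in any member window. H3K4me1 was there in all 5 skin lists, and in culture with and without WT SOX9 but not with ΔHMG or ΔTA.

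By H3K27ac, *Notch2* was called as more at W2, W6 and W12, *Notch3* as fewer at W1 alone, and *Notch1* as fewer at W12 alone. Only at W12 were 2 receptors called in opposite directions, and the *Notch1* call there was lost relative to the median of all genes. Over *Notch2* the H3K27ac cover was 1.24% at D0, 1.04% at W1, and 2.5%, 2.63% and 2.79% in the 3 later lists. The ratio passed the fold at W2 (2.01), W6 (2.12) and W12 (2.25), with D0 and W1 below the 3 later lists. At W2 it fell below the fold when only peaks above the median score were kept, with a log2 ratio of 0.40. The intronic region at chr3:98042651-98044372, 30 kb into the gene, was missing at D0 and had folds of 3.85, 9.12, 8.35 and 6.38 later. Its summit holds the paired SOX cores shown above. The start site had folds of 13.3, 8.47, 7.72 and 16.1 at D0 to W6 and no peak at W12. At W12, 8 of its 10 peaks had no counterpart at D0, beside 56.2% of the whole W12 list. Of the 14 regions of this window 5 were called at W12 alone, beside 21.2% of the genome's regions. H3K4me1 over *Notch2* stayed between 29.2% and 35.0% with no call.

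*Notch1*, the receptor best known for its role in keratinocyte differentiation, had an H3K27ac cover of 11.2%, 10.5%, 10.7%, 9.82% and 6.04% from D0 to W12. Its peaks numbered 14 at D0 and 8 at W2, where 5 of the 14 had no counterpart, beside 38.6% of the whole D0 list. With peaks above the median score W2 was called as fewer. The W12 ratio of 0.540 was past the fold. It lay at the 27.6 percentile of all genes, and divided by the median ratio of all genes it was no longer called (log2 ratio -0.44). The annotated start site, 12.8 kb into the gene record, lay in a region with folds of 15.3, 13.1, 11.9, 14.3 and 7.79, and an intronic region upstream of it had 18.0, 9.24, 16.8, 9.54 and 14.2. The highest fold in the window was at the start of *Sec16a* at D0, W1 and W2. At 33.3 and 40.1 kb upstream of *Notch1*, where *Egfl7* has the nearest start site, 2 peaks were called at D0 (7.33 and 6) and in no later list. A region between them (chr2:26550785-26555597) was in every list, at 18.7 at D0 and 8.47, 5.61, 9.54 and 6.38 later. H3K4me1 ranged from 46.8% to 52.4%.

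*Notch3* covered 2.33%, 1.27%, 3.10%, 3.46% and 1.75% with H3K27ac, called as fewer at W1 (0.547). W1 was also the shallowest list, and the part of depth in this value was not tested. Its main peak, in an intron 5.0 kb into the gene, was in every list at 20, 11.5, 9.82, 13.7 and 10.6. Near its start site, a region was called at W2 (4.91) and W6 (5.37) alone, and 3 of the 7 regions in this window had that pattern. Over all members 2.47% of regions had it, beside 1.93% of the genome's. H3K4me1 went from 28.5% to 20.3% at W1, a ratio of 0.712, and was 25.1%, 35.3% and 32.7% later. This W1 call was lost with a flank of 10 kb and relative to the median of all genes.

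Among the ligands, no H3K27ac call was made at W1 or W2, all 3 were called as fewer at W6, and *Jag2* and *Dll1* at W12. *Jag1*, a Jagged ligand, covered 11.6% and 11.1% at D0 and W1, and 7.81%, 7.66% and 8.65% in the 3 later lists, in 11, 11, 4, 5 and 14 peaks. W2, W6 and W12 lay below D0 and W1, and W6 passed the fold (0.661, the 10.7 percentile of all genes) while W2 (0.674) and W12 (0.747, the 51.3 percentile) stopped short of it. Relative to the median of all genes W2 was called too. The W6 call was lost with a flank of 10 kb (log2 ratio -0.41) and with peaks above the median score (-0.53). Its start site peak stayed, with a fold of 34.0 at D0 and 13.9, 18.2, 18.5 and 12 later, as did intronic peaks 8.3 and 18.3 kb into the gene. At W2, 8 of the 11 D0 peaks had no counterpart, beside 38.6% of the whole D0 list. Beyond the 3′ end, in the body of *Slx4ip*, a region 53.8 kb from the 5′ end had folds of 8 at D0, 8.47 at W1 and 8.50 at W12, and was not called at W2 or W6.

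*Dll1*, a Delta ligand, covered 8.24%, 7.16%, 5.97%, 5.02% and 3.46%, each list below the one before. W6 (0.609) and W12 (0.420) were past the fold, both also relative to the median of all genes. The W6 call was lost when only peaks nearest the *Dll1* start site were kept (log2 ratio -0.54). Its start-site region stayed at 16.7, 10, 9.12, 7.16 and 7.79, and a region 49.9 kb from the 5′ end (chr17:15325369-15328602) at 15.3, 10, 14, 8.35 and 9.21. A peak 2.9 kb upstream, whose sequence is shown above, was called at D0 (4.66) and in no later list. A neighbouring region 3.9 kb upstream (chr17:15380031-15381602) had 10, 7.70, 8.42 and 7.16 and was not called at W12. H3K4me1 over *Dll1* covered 49.9% at D0 and between 39.1% and 43.7% later. It passed the fold at W2 (0.783), a call lost with a flank of 10 kb, with peaks above the median score, with lists of equal length and relative to the all-gene median.

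*Jag2*, the most H3K4me1-covered member, held 70.5% at D0 and 59.0%, 54.6%, 54.9% and 62.5% later, all below D0. The ratio passed the fold at W2 (0.774) and W6 (0.779), at the 30.7 and 32.0 percentile of all genes, and at neither time relative to their median (log2 ratio -0.21 and -0.18). H3K27ac covered 6.32%, 4.60%, 6.14%, 3.47% and 1.83%. W6 (0.550, the 6.67 percentile) and W12 (0.290, the 6.39 percentile) were called, and the W12 ratio was the lowest of any member. W2 was not called (0.972), but with a flank of 10 kb, or with only the peaks nearest its start site, *Jag2* had more bases at W2 than at D0, past the fold. An intronic region 2.3 kb into *Jag2* had folds of 5.33 at D0, 3.85 at W1 and 7.72 at W2 and no peak at W6 or W12. The peaks of highest fold in this window lay nearest to *Gpr132* or *Nudt14* in every list.

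**Figure D4:**
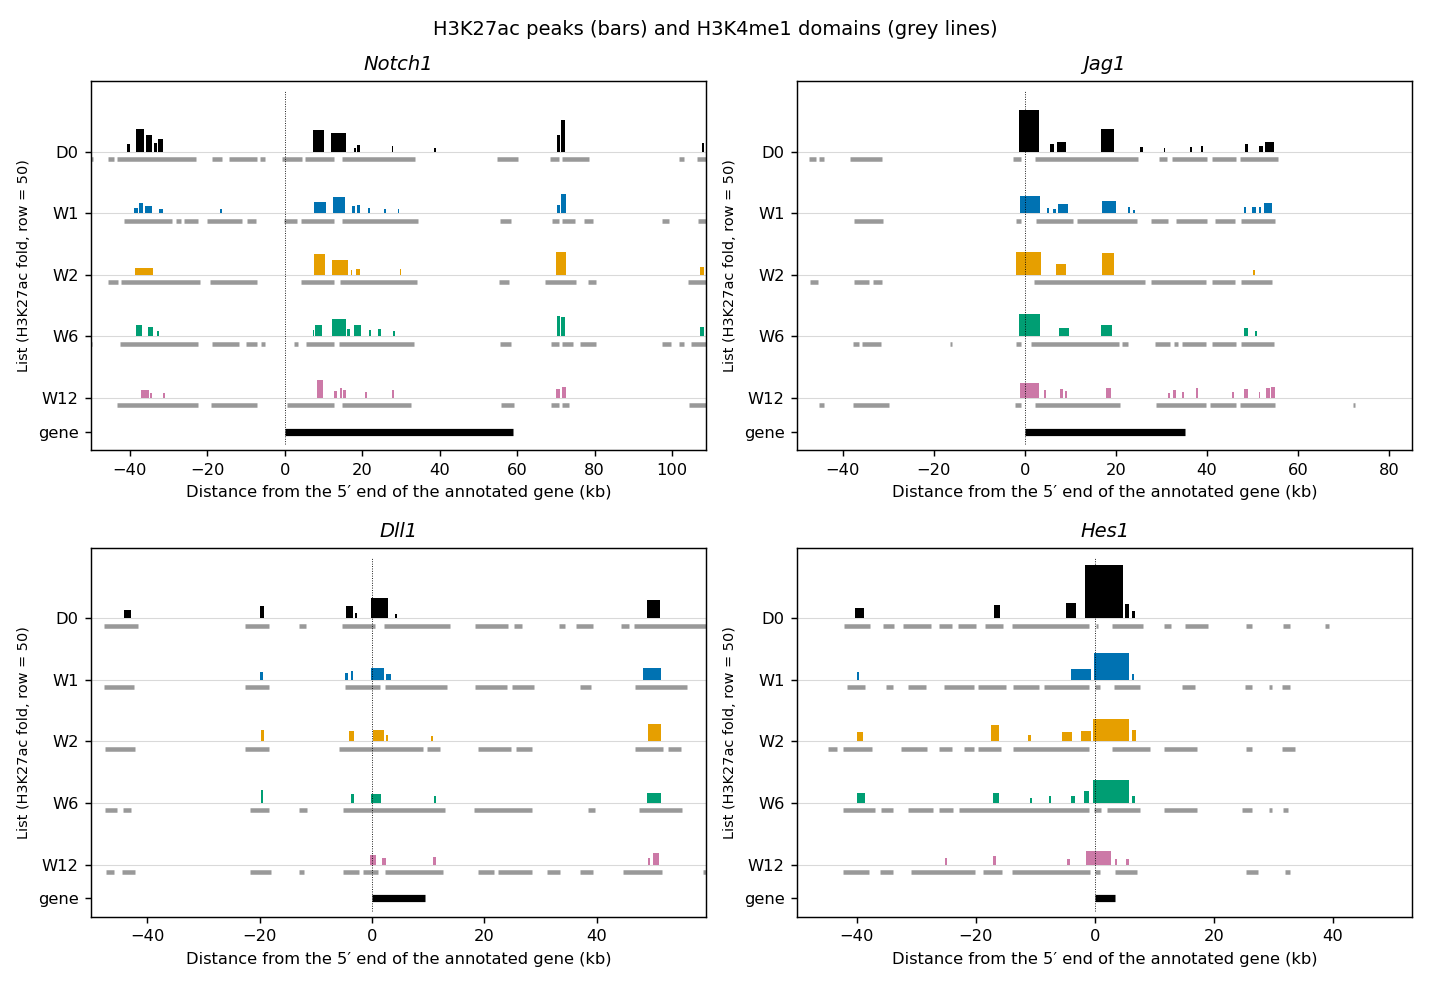
H3K27ac peaks (bars, height is fold enrichment, 1 row spacing is a fold of 50) and H3K4me1 domains (grey lines) over *Notch1*, *Jag1*, *Dll1* and *Hes1* in the 5 skin lists, by distance from the 5′ end of the annotated gene in kb. The start-site block of *Hes1* is in every row and is tallest at D0 (43.3), and *Jag1* has 4 bars at W2 against 11 at D0.

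Of the targets, *Hes1*, a repressor that Notch induces directly in many tissues, carried the highest H3K27ac fold of any member at D0. Its start-site region (chr16:30058917-30070193) had folds of 43.3, 21.6, 18.2, 19.1 and 11.3 from D0 to W12. Folds of separate lists depend on their depth. Among the peaks of its own list the *Hes1* region stood at the 99.3, 99.4, 96.6, 94.4 and 93.9 percentile from D0 to W12. As a percentile among the top folds of all genes in the same list, the values were 95.5, 96.2, 82.4, 69.6 and 73.4. On this second measure *Rbpj* had 84.3, 66.7, 77.5, 58.3 and 68.9, also lower in every later list than at D0. By both measures *Hes1* stood lower from W2 on than at D0 and W1. The covered share was 11.2%, 9.94%, 12.5%, 10.8% and 6.11%. Only W12 was past the fold (0.548), and relative to the median of all genes it was not (log2 ratio -0.42). A region 16.7 kb upstream (chr16:30046907-30048415) was called in every list but W1, at 11.3, 13.3, 8.35 and 7.08. H3K4me1 was 44.1%, 38.1%, 44.9%, 49.5% and 39.6%, with no call.

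*Hey1*, a target that encodes a repressor of the Hey family, was nearly bare. H3K4me1 covered 5.06%, 5.44%, 7.75%, 5.64% and 3.71% of its window, in 3 or 4 domains per list. W2 was called as more (1.53) and W12 as fewer (0.734), and the W12 call was lost relative to the median of all genes (log2 ratio -0.24) and with domains above the median score (0). No H3K27ac peak lay in the window at D0, W1, W2 or W6. At W12 there were 2, at 15.8 and 34.3 kb upstream, with folds of 7.79 and 7.08. No H3K4me1 domain of any skin or culture list lay under them, and no fold change against D0 is given.

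Counted by interval over the 10 windows together, H3K27ac turned over at about the rate of the whole lists. In the 10 windows, 29 of 77 W1 peaks had no counterpart at D0 (37.7%, 95% exact Clopper-Pearson interval 26.9 to 49.4%), 37 of 80 at W2 (46.2%, 35.0 to 57.8%), 32 of 79 at W6 (40.5%, 29.6 to 52.1%) and 51 of 96 at W12 (53.1%, 42.7 to 63.4%). In the whole lists the shares were 41.3%, 40.1%, 39.8% and 56.2%, inside all of these intervals. The windows were not alike, since *Maml2* alone held 13, 20, 17 and 25 of the peaks without a counterpart. Its window had 25, 31, 27 and 34 peaks in these lists. Of the 71 D0 peaks, 24, 24, 23 and 34 were lost at W1, W2, W6 and W12. These are 33.8%, 33.8%, 32.4% and 47.9%, beside 37.4%, 38.6%, 37.8% and 53.7% of the whole D0 list. For H3K4me1 the lost share was smaller in the windows than in the whole list, which lay above each of the 4 intervals. At W1, 27 of 152 D0 domains had none (17.8%, 12 to 24.8%), against 27.8% of the whole list, and 28 at W2 (18.4%, 12.6 to 25.5%), against 32.4%. At W6 it was 18 (11.8%, 7.17 to 18.1%), against 26.6%, and at W12 27 (17.8%, 12 to 24.8%), against 31.2%. The gained share was also below that of the whole list at W2 (9.45%, 4.98 to 15.9%, against 20% of the whole list) and W6 (10.1%, 5.74 to 16.1%, against 17.1%). These differences were not tested, and domains of 10 chosen windows are not a sample of the list.

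Over all 5 lists the windows held 162 separate H3K27ac regions, 60 of them at *Maml2*. Of these 20 were in every list (12.3%, beside 15.6% of the 65294 regions of the genome). A start site lay inside 9 of them, those of the neighbours *Sec16a*, *Ephx3* and *Mtmr2* included. None of the 93 regions found in a single list had a start site inside, though a region of W2 lay 103 bp from that of *Jag2*. Regions called at W12 alone numbered 35 (21.6%, beside 21.2% of the genome's), and 15 of these lay at *Maml2*. Introns held 94 regions, intergenic sequence 40, and exons and start sites 14 each. The nearest protein-coding start site was a member's for 122 of the 162. Of the 27 regions first called at W2, 13 lay at *Maml2*, and 23 of the 27 were within an H3K4me1 domain already at D0. Of the 35 first called at W12, 19 were. For regions with H3K4me1 at D0, and for regions with a start site inside, the share over the genome's regions was not computed. These counts therefore have no background, and most of these windows had H3K4me1 cover above the median of all genes at D0. A peak within 1000 bp of a start site was found for 7, 7, 9, 8 and 6 members at D0, W1, W2, W6 and W12, where 44.5%, 43.1%, 44.1%, 48.4% and 36.2% of all genes had one. *Notch1*, *Jag1*, *Dll1*, *Hes1*, *Rbpj* and *Maml2* had one in every list. *Jag2* had one at W2 alone (within 2500 bp at D0 and W1 too), *Notch3* at W2 and W6, and *Notch2* in every list but W12.

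A list of 46 other pathway genes was counted by the same rule, with 44 tested for H3K27ac (45 at W12) and 46 for H3K4me1. Their windows have the same 50 kb flanks, and whether the intervals in them belong to the gene was not checked. The alternatives, the ratio relative to the median of all genes included, were not applied to this list. For H3K27ac, 10 had more and 4 fewer covered bases at W1, 10 and 5 at W2, 12 and 1 at W6, and 6 and 20 at W12, and their median log2 ratio was 0.05, 0.05, 0.17 and -0.54. The shares with more were 22.7%, 22.7%, 27.3% and 13.3%, beside 19.5%, 23.9%, 28.4% and 19.9% of all genes. The shares with fewer were 9.09%, 11.4%, 2.27% and 44.4%, beside 18.8%, 16.7%, 13.3% and 40.5%. *Kat2a*, a histone acetyltransferase, was past the fold in all 4 lists, with 1.79% at D0 and 5.02%, 6.04%, 7.58% and 4.22% later. *Neurl1a*, an E3 ligase that acts on ligands, also was, with 0.825% at D0 and 1.40%, 1.63%, 1.35% and 1.79%. *Lfng*, a glycosyltransferase that modifies Notch receptors, had 1.60% at D0, 4.45% at W2 and 2.65% at W6, and 0.839% at W12. *Aph1b* was past the fold toward more at W1 (2.61), W2 (2.97) and W6 (4.27), and not at W12 (1.11). Further genes of the list were past the fold and are not named. For H3K4me1, 0 genes had more and 18 fewer at W1, 3 and 7 at W2, 2 and 15 at W6, and 2 and 16 at W12. Those with fewer were 39.1%, 15.2%, 32.6% and 34.8% of the list, beside 40.9%, 35.8%, 36.2% and 38.9% of all genes. Those with more were 0%, 6.52%, 4.35% and 4.35%, beside 5.21%, 15.1%, 12.5% and 12.9%. *Adam10*, the protease that makes the first cut after ligand binding, was past the fold toward fewer in all 4, with 38.1% at D0 and 28.4%, 23.7%, 24.9% and 24.4% later. *Maml1* and *Maml3*, the other Mastermind genes, were called as fewer at W1, W6 and W12 and not at W2, unlike *Maml2*.

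In culture the SOX9 variants were compared with WT cells without DOX for H3K4me1 alone. The culture lists have another format than the skin lists and were not compared with them. With WT SOX9, *Maml2* and *Hey1* had more covered bases (background 28.7%) and *Notch3* fewer (15.4%). *Maml2* covered 12.9% without DOX, 16.8% with WT SOX9 (1.30-fold), 12.1% with ΔHMG and 12.3% with ΔTA, so that WT SOX9 was the highest and the other 3 lay close together. This call was lost with a flank of 10 kb, where the log2 ratio was 0.32, and relative to the median of all genes (0.30). The call of *Hey1* was lost with a flank of 10 kb too (0.28). *Notch3* covered 18.8%, 12.6%, 15.6% and 18.1% in the same order, lowest with WT SOX9 (0.672, the 6.96 percentile of all genes). Of its 21 domains without DOX, 7 had no counterpart with WT SOX9, 4 with ΔHMG and 5 with ΔTA. Over the whole list without DOX, 25.1%, 15.6% and 17.5% of domains had none.

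With ΔHMG no member had more covered bases (background 18.7%), and *Hey1* and *Rbpj* had fewer (12%). With ΔTA *Rbpj* had more (29.5%) and *Hey1* fewer (10.4%). *Hey1* covered 3.64%, 5.36%, 2.23% and 2.75%, in 2, 4, 5 and 5 domains, so that few domains decide its ratio. *Rbpj* covered 7.35%, 6.16%, 5.57% and 9.98%. The ΔTA list, the longest of the 4 with 123338 domains, held 32 domains there, 11 of them without a counterpart in the list without DOX. Of the whole ΔTA list 25.8% had none. The ΔHMG call of *Rbpj* turned to a log2 ratio of 0.16 with domains above the median score. *Notch1*, *Notch2*, *Jag1*, *Jag2*, *Dll1* and *Hes1* were called in no comparison, and *Notch1* had the largest cover in every culture list (20.7% to 24.9%). In the windows, gained domains made up 17.5% (12.6 to 23.2%) with WT SOX9, 12.4% (8.25 to 17.6%) with ΔHMG and 16.2% (11.6 to 21.8%) with ΔTA. These intervals overlap. The shares of the whole lists were higher than all 3, at 29.1%, 19.3% and 25.8%. Of the 46 other pathway genes, 10, 4 and 7 had more and 8, 7 and 0 fewer, in the same order. These are 21.7%, 8.70% and 15.2% with more, beside 28.7%, 18.7% and 29.5% of all genes. Those with fewer are 17.4%, 15.2% and 0%, beside 15.4%, 12% and 10.4% of all genes.

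**Figure D5:**
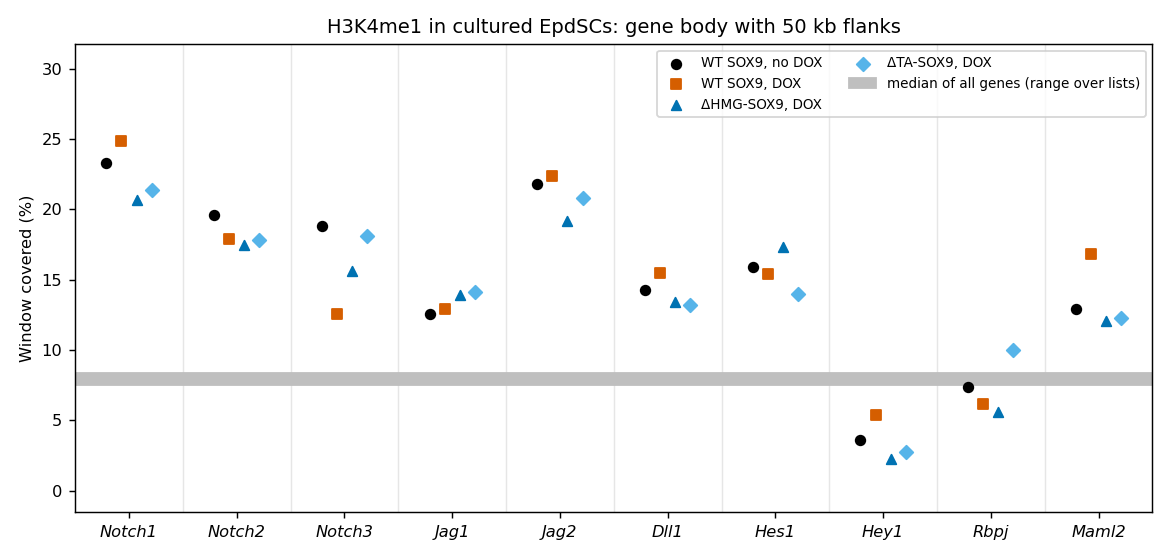
Percentage of each window covered by H3K4me1 domains in the 4 pooled culture lists, 1 point per list, with the range of the all-gene median in grey. WT SOX9 with DOX is lowest for *Notch3* and highest for *Maml2*.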

How the data were processed

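MINT-ChIP was done on 38 samples in 16 groups, named from the labels, and 14 pooled interval lists were analysed. Total H3 was not analysed here. As the study describes it, the authors aligned reads to mm10 with Bowtie2 (version 2.2.9 in the submitters' processing notes), removed duplicates with Picard, merged replicates with SAMtools 1.9, and called H3K27ac peaks with MACS2 (2.1.1) and H3K4me1 domains with epic2. Caller settings, and how the culture lists were called, are not given in the sources used here. Conditions of the lists were read from their names. The deposited H3K4me1 lists of skin give a p-value per domain. The other deposited lists give a score, a fold enrichment (a ratio to background) and −log10 of a q-value. A further 14 files hold barcodes and no measurement.

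Intervals on 21 chromosomes were used, and the end of each epic2 domain was moved by 1 bp to the end of its 200 bp bin. The 10 members, the 46 other pathway genes, the marker lists, the folds for a call and the alternatives were chosen with earlier results of these data known. Covered bases were compared by ratio over 21938 protein-coding genes of GENCODE M21 (basic set), tested where either list had an interval. Gained and lost intervals had no overlap of 1 bp. Each region was placed at a start site of that set where it held one, otherwise at an exon or intron, or as intergenic. Distances count from the 5′ end of the gene record. Named were all members, their highest H3K27ac peaks, the 5 peaks of highest fold gained at W2 and the 5 lost in all later lists, and other pathway genes past the fold. Depth was taken from the fold values, which lie on even steps: between 82.3% (W12) and 95.9% (D0) of H3K27ac peaks were within 0.002 of one. No replicate error exists, so shares carry 95% Clopper-Pearson intervals (SciPy 1.17.1). Interval functions were tested on simulated data. The alternatives were a flank of 10 kb, intervals above the median score (skin H3K4me1: the lower p-values), lists of equal length, ratios divided by the median of all genes, stricter folds, an overlap of 50%, joining within 1000 bp, intervals nearest to the member's start site, and 2500 bp around start sites.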

Additional observations from a re-analysis of the deposited data

How the results depend on the processing

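No paired analysis was possible because each list pools the replicates of its group, and for the same reason no replicate could be left out. The H3K27ac calls of *Maml2* in all 4 comparisons, and those of *Jag2* and *Dll1* at W12, held under each alternative that gave a value. *Jag2* gave none at W6 and W12 with a flank of 10 kb or with peaks nearest its start site. In culture, *Rbpj* with ΔHMG turned from fewer to more bases above the median score (log2 ratio 0.16). Where a number of members called, or a share of intervals, moved, the cause was not tested. Numbers of members follow. The share of all genes past the fold was not computed under any alternative, so these numbers have no background beside them. They are not read as results about the members. With a flank of 10 kb, H3K4me1 gave 0 members with fewer bases at W1 and 1 at W2, and 2 with more at W6 and W12. Culture then gave 0 with more for WT SOX9, 5 with fewer for ΔHMG and 3 for ΔTA. Above the median score, H3K4me1 gave 0 with more and 4 with fewer at W1, 1 with more at W6 and 2 with fewer at W12. H3K27ac gave 3 with fewer at W1, and 1 with more (*Maml2*) and 1 with fewer (*Notch1*) at W2. *Jag2* had more H3K27ac at W2 with a flank of 10 kb and with peaks nearest its start site. Culture gave 5 with more and 2 with fewer for WT SOX9, and 3 with fewer for ΔTA. With lists of equal length, 1 member had fewer H3K4me1 bases at W2 and 2 with ΔTA. With intervals nearest the member's start site, 1 had more H3K4me1 at W6 and 2 had fewer with ΔTA. Relative to the median of all genes, 0 members had fewer H3K4me1 bases at W1, W2, W6 and W12, and 2, 4 and 3 had more at W1, W6 and W12. H3K27ac then had 1 with fewer at W2 (*Jag1*) and 2 at W12, and culture 1 with more and 2 with fewer for WT SOX9. With the stricter folds, H3K4me1 had 0 in either direction at W1 and W12, 1 with more (*Hey1*) and 0 with fewer at W2, and 0 with fewer at W6. H3K27ac had 0 with fewer at W1 and W6 and 2 at W12. Culture had 0 in either direction for WT SOX9 and ΔTA, and 1 with fewer (*Hey1*) for ΔHMG. For H3K4me1 in skin, the share of domains lost was 9.57%, 11.7% and 6.38% at W1, W2 and W6 with a flank of 10 kb, 25.6% at W1 above the median score, and 10% at W1 and 11.9% at W12 with lists of equal length, where 11.6% were gained at W1. In culture above the median score, 32.2%, 20.4% and 27.4% were gained and 26.4%, 30.9% and 25.5% lost with WT SOX9, ΔHMG and ΔTA, and 11.3% were gained with ΔTA and lists of equal length. An overlap of 50% and joined intervals left all shares within their 95% intervals. Within 2500 bp, 8 members in place of 7 had a start-site peak at D0 and W1. Weak H3K27ac peaks are limited by depth, which was lowest at W1.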
